A study of Mus musculus with 28 samples.

Results

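The comparison described here is the maturation step of normal mouse rods between postnatal day 6 (P6) and postnatal day 10 (P10). It was chosen by age and genotype alone: 4 WT libraries at P6 (replicates 1 to 4) against 4 WT libraries at P10 (replicates 2 to 5), 8 of the 28 libraries of the series. All of them came from TgNrlp-GFP mice, in which the promoter of the rod transcription factor Nrl drives green fluorescent protein (GFP). The WT mice carry this transgene and no Pde6b rd1 allele, and the transgene is also present in the rd1 mice of the series. Retinas were dissociated with papain, and GFP-positive cells were collected by flow cytometry before RNA extraction and stranded mRNA sequencing. Because the Nrl promoter becomes active in a rod soon after its last division, the sort takes newborn as well as older rods. The labels do not say whether a replicate is one animal or a pool, so p-values measure the spread between these libraries, which may be partly technical. Xist and the Y-linked gene Ddx3y differed widely among the 8 libraries. P6 replicates 1 and 3 and P10 replicate 5 held both, as mixed male and female cells would. Xist was at 948, 3496 and 1610 CPM there, and Ddx3y at 28.3, 32.7 and 32.2 CPM. P6 replicate 2 and P10 replicates 2 to 4 looked male (Xist up to 6.73 CPM, Ddx3y 74.7 CPM or more). P6 replicate 4 looked female (Xist 4620 CPM, Ddx3y 0.544 CPM). Sex was unbalanced between the ages, so results are limited to autosomal genes, 41005 of the 45594 genes in the table. The part of sex in the autosomal results was not tested. The 2 P8 WT libraries (replicates 1 and 2) are shown only as values in between.

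A rod is born in the mouse retina around birth and finishes its architecture during the following weeks. In this window it grows a cilium, extends it into the outer segment, a stack of membrane discs packed with visual pigment, and builds a ribbon synapse at its other end. In the outer segment, light-activated pigment switches on the G protein transducin. Transducin releases phosphodiesterase 6, the enzyme breaks down cyclic GMP, and cyclic GMP-gated cation channels close. Arrestin, a receptor kinase and a GTPase-accelerating complex end the response, while guanylate cyclase and its activating proteins restore cyclic GMP. The transcription factors NRL, CRX and NR2E3 set the rod identity, and the young rod also closes down the cell cycle and Notch programmes of the progenitors it came from.

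The 8 libraries held between 11942678 and 14995501 estimated counts. The rod gene Nrl was at 2534, 2274, 1603 and 2169 counts per 1000000 (CPM) in P6 replicates 1 to 4 and at 2291, 2137, 2258 and 2649 CPM in P10 replicates 2 to 5. Of 10 pigment epithelium markers, 8 passed the low-count filter (Rpe65 and Best1 did not), and of 16 microglia and macrophage markers 15 did (Aif1 did not). Summed over the list, they reached up to 99.6 and 149 CPM in the 8 libraries. A pair of libraries stood apart. P6 replicate 1 had 25749 detected genes against 21510 to 22050 in the other P6 libraries, and a single ribosomal RNA-like gene, Rn18s-rs5, took 3.86% of its counts. In P10 replicate 5 the immediate early gene Fos stood at 515 CPM, with the lowest levels of most other-cell markers. Every count that leads a paragraph is therefore also given without this pair of libraries. On the first principal component, with 53.3% of the variance, the P6 libraries ran from -72.26 to -29.62, and the P10 libraries from 12.75 to 107.6. The P8 libraries lay at 53.73 (replicate 1) and 3.75 (replicate 2), so P8 replicate 1 sat beyond 3 of the 4 P10 libraries.

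Between P6 and P10, 3174 of 15571 autosomal genes tested (20.4%) differed at an adjusted p under 0.05 in edgeR's quasi-likelihood test. Of these, 1611 were higher at P10 (10.3%) and 1563 were lower (10%). These shares are the background for every list count below. The change was at least 2-fold for 1758 genes (11.3%), 899 of them higher (5.77%) and 859 lower (5.52%). The higher genes supplied 10.8% of all counts at P6 and 24.1% at P10, whereas the lower genes went from 13.9% to 7.16%. Without P6 replicate 1 and P10 replicate 5, 3322 of 15696 genes were called (21.2%), 1786 of them higher (11.4%) and 1536 lower (9.79%). Both fits shared 2566 genes in the same direction, which is 80.8% of the 8-library calls and 77.2% of the others, and no gene was called in opposite directions. The count depended on single libraries: it was 1752 without P10 replicate 4, 1940 without P6 replicate 3 and 2050 without P10 replicate 3. In bulk libraries, fewer cells of a type and less RNA per cell cannot be told apart, and this holds for every fall and rise given here.

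**Figure D1:**
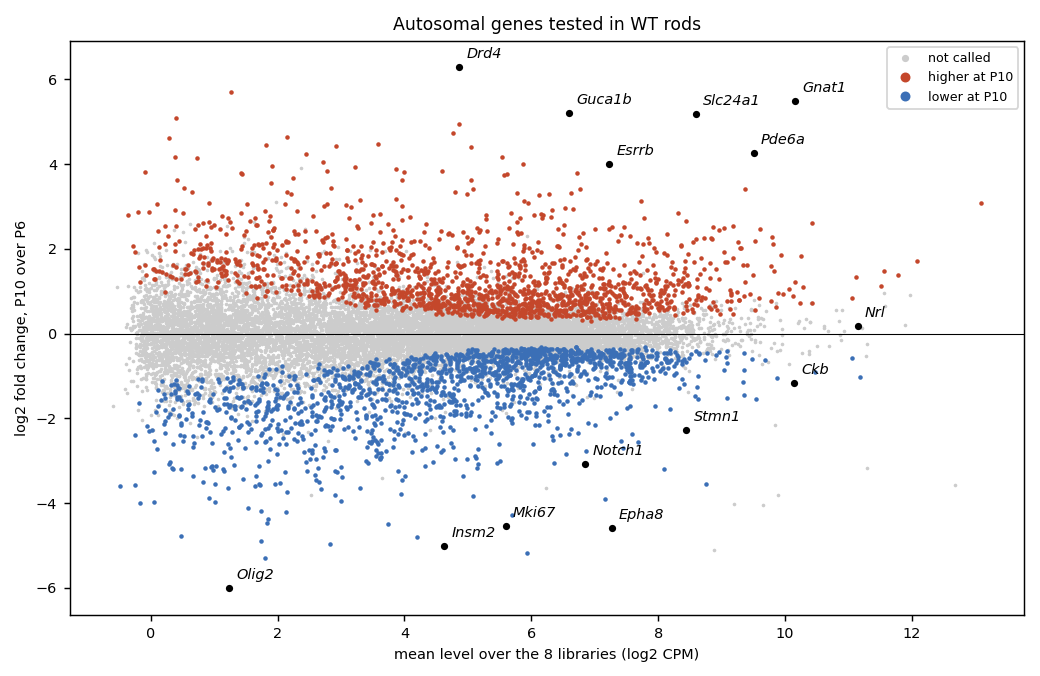
Each point is 1 of the 15571 autosomal genes tested, with its mean level over the 8 libraries (log2 CPM) on the x axis and its log2 fold change, P10 over P6, on the y axis. Red points are genes called higher at P10 (1611), blue points genes called lower (1563), and black points are labelled examples, among which Drd4 has the highest value and Olig2 the lowest.

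Rod phototransduction genes rose almost as a block. Of 20 autosomal members tested, 18 were higher at P10 and none was lower, beside 10.3% and 10% of all genes tested, and their median log2 fold change was 2.13 against -0.01 over all genes. The count was 19 without the pair of libraries that stood apart, and DESeq2 called all 20 higher.

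The transducin and phosphodiesterase subunits moved by very different amounts. Gnat1, the rod transducin alpha subunit, was at 60.2, 38.9, 33.2 and 70.5 CPM at P6, 1159 and 243 CPM at P8 and 838, 1514, 2417 and 3744 CPM at P10. That is a 44.9-fold rise (log2 5.49 ± 0.55, edgeR adjusted p = 0.000606), with every P10 library more than 10 times above every P6 library. The transducin beta and gamma partners rose less: Gnb1 by 1.38 ± 0.24 (adjusted p = 0.00444) and Gngt1 by 2.01 ± 0.36 (adjusted p = 0.00470) on the log2 scale. Pde6a, a catalytic subunit of phosphodiesterase 6, was at 96.5, 70.6, 39.9 and 85.9 CPM at P6, 1037 and 325 CPM at P8 and 870.2, 1081, 1379.5 and 1969 CPM at P10. Its log2 fold change was 4.25 ± 0.40 (adjusted p = 0.000481). Pde6b, the other catalytic subunit and the gene mutated in rd1, was already abundant at P6 with 1129, 1641, 886 and 1508 CPM. It reached 3189 and 2199 CPM at P8 and 2579.7, 2735, 2843 and 4138 CPM at P10, a log2 fold change of 1.34 ± 0.28 (adjusted p = 0.00975). The inhibitory subunit gene Pde6g rose by 1.82 ± 0.33 (adjusted p = 0.00533). Within this enzyme the estimated change of Pde6a was 4.25 and that of Pde6b 1.34 on the log2 scale, and the difference between them was not tested.

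The channel, the exchanger and the recovery proteins also rose. Slc24a1, the sodium/calcium-potassium exchanger of the rod outer segment, was at 20.7, 15.1, 11.7 and 37.3 CPM at P6, 479 and 131 CPM at P8 and 418, 589, 776 and 1089 CPM at P10, a log2 fold change of 5.18 ± 0.47 (edgeR adjusted p = 0.000434). The channel subunits Cnga1 and Cngb1 rose by 2.53 ± 0.30 (adjusted p = 0.00103) and 1.09 ± 0.24 (adjusted p = 0.0122). Guca1b, which encodes a calcium-dependent guanylate cyclase activator, was at 6.35, 4.12, 3.84 and 6.18 CPM at P6, 95.1 and 17.2 CPM at P8 and 81.4, 116, 202 and 313 CPM at P10, a log2 fold change of 5.22 ± 0.49 (adjusted p = 0.000481). Its neighbour in function, Guca1a, missed the threshold with 0.81, as did phosducin (Pdc) with 0.64. Without P6 replicate 1 and P10 replicate 5, Guca1a was called higher (log2 1.24, edgeR adjusted p = 0.00816). The cyclase gene Gucy2e rose by 2.25 ± 0.25 (adjusted p = 0.000732). Recoverin (Rcvrn) rose by 3.42 ± 0.46 (adjusted p = 0.00142). Among the genes that end the response, the receptor kinase gene Grk1 rose by 2.62 ± 0.38 (adjusted p = 0.00202) and rod arrestin (Sag) by 1.73 ± 0.31 (adjusted p = 0.00467). In 19 of the 20 genes the P6 and P10 libraries did not overlap, beside 26.8% of all genes tested.

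**Figure D2:**
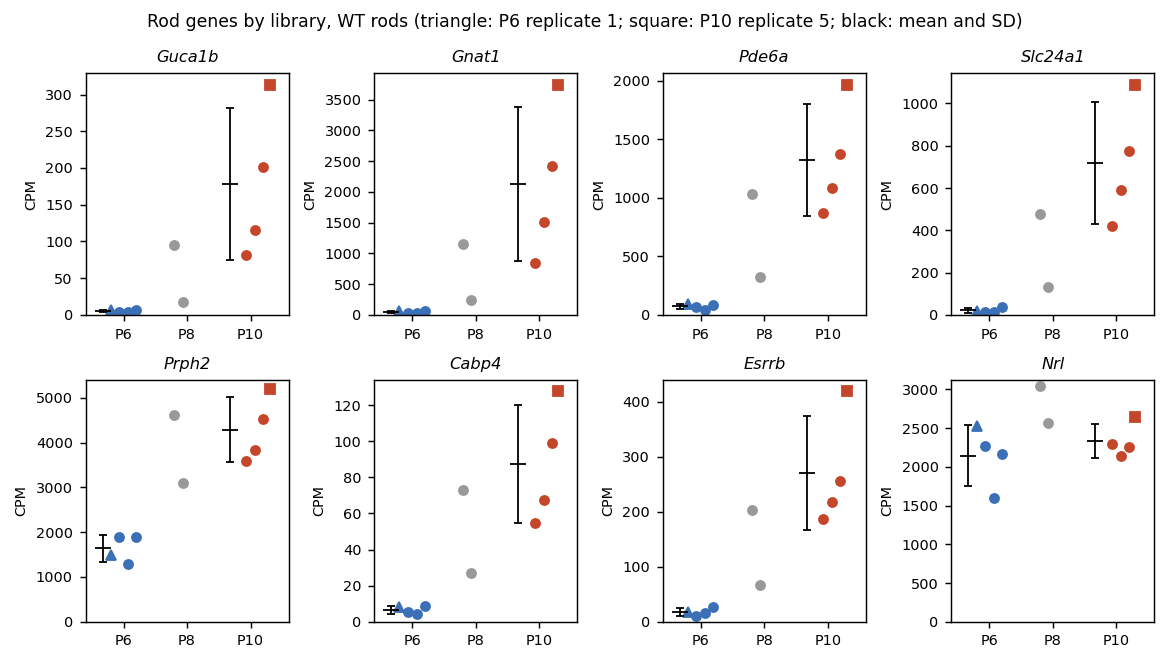
CPM (y axis) of Guca1b, Gnat1, Pde6a, Slc24a1, Prph2, Cabp4, Esrrb and Nrl in the P6 (blue), P8 (grey) and P10 (red) WT libraries; black marks are group means with SD for the 4 libraries at P6 and the 4 at P10, the triangle is P6 replicate 1 and the square P10 replicate 5. Every gene except Nrl has all P10 libraries above all P6 libraries, and P10 replicate 5 is the highest library for each of them.

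Several of these genes carry the core of the binding motif of CRX in their promoter. Of the 5 promoters printed, 4 show where it lies, and that of Pde6b shows a motif for NRL. Windows of 300 bases (250 before to 50 after the start) came from RefSeq on GRCm38.p6 and held 13 of the 20 genes. The motif TAATCC, searched on both strands (reverse complement GGATTA), occurred in 7 of the 13 (Cnga1, Cngb1, Gnb5, Gngt1, Guca1a, Gucy2e and Sag) and in 7.06% of all 32851 promoters in the table. A Maf-type motif for NRL, TGCTGAC (reverse complement GTCAGCA, no overlap with the first motif), occurred in 1 of the 13 (Pde6b) and in 4.67% of all promoters. Only 69.9% of the genes tested had a window, too few for a comparison with the other genes tested. Each sequence runs 5′ to 3′ on the gene's strand, with the matched letters in capitals. The windows are Cngb1 at chr8:95306536-95306835 (minus strand), Gucy2e at chr11:69236973-69237272 (minus), Gngt1 at chr6:3993758-3994057 (plus), Sag at chr1:87803430-87803729 (plus) and Pde6b at chr5:108388123-108388422 (plus).
Cngb1: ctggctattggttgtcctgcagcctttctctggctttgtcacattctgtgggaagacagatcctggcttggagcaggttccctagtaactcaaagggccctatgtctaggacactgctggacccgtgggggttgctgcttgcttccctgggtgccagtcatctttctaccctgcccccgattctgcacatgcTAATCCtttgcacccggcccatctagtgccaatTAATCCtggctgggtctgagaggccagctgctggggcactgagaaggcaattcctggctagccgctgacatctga
Gucy2e: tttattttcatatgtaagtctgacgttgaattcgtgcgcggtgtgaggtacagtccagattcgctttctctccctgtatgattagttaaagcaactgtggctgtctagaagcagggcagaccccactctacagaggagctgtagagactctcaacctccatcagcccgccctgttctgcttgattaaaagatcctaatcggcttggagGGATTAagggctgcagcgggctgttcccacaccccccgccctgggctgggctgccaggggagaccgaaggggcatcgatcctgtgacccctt
Gngt1: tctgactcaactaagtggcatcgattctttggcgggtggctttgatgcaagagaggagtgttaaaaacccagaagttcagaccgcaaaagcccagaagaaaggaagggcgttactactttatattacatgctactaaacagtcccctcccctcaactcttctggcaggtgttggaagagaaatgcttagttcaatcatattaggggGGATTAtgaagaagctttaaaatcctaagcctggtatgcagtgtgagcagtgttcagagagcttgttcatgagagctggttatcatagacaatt
Sag: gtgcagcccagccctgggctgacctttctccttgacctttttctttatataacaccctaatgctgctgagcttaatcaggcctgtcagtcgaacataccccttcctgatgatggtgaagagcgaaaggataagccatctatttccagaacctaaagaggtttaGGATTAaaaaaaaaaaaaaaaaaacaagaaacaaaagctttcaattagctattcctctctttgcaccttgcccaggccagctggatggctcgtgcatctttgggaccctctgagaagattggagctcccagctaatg
Pde6b: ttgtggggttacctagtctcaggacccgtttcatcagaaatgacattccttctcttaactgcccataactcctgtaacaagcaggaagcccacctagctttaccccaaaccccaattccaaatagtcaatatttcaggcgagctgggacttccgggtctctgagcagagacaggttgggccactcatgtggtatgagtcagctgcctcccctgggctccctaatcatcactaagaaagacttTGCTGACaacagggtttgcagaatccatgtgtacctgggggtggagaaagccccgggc
Counted from the start site, the matches began at -58 and -25 in Cngb1, at -42 in Gucy2e, at -44 in Gngt1 and at -87 in Sag, and the TGCTGAC match in Pde6b began at -8. These are letter matches, not measured binding. Guca1a, which missed the threshold in the 8 libraries but not without P6 replicate 1 and P10 replicate 5, also holds the motif.

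Genes of the disc rim and the matrix around the outer segment rose with phototransduction but by less. Of 13 tested, 12 were higher and none was lower, with a median log2 fold change of 1.07, and 10 were higher without P6 replicate 1 and P10 replicate 5. Prph2, peripherin of the disc rim, was at 1482, 1892, 1293 and 1897 CPM at P6, 4612 and 3102 CPM at P8 and 3589, 3831, 4535 and 5199.7 CPM at P10. Its log2 fold change was 1.47 ± 0.24 (edgeR adjusted p = 0.00342), and the groups did not overlap. Rom1, its partner in the rim, rose by 0.72 ± 0.20 (adjusted p = 0.0328). That call did not survive leaving out P6 replicate 2, 3 or 4, P10 replicate 4 or P10 replicate 5, where the adjusted p reached up to 0.093. The larger rises were in Fscn2, an actin-bundling protein of photoreceptors, with 2.38 ± 0.29 (adjusted p = 0.00105), and in the matrix proteoglycan gene Impg1, with 2.35 ± 0.27 (adjusted p = 0.000896). Fscn2 was at 9.33, 7.80, 5.80 and 10.96 CPM at P6, 41.5 and 22.5 CPM at P8 and 28.3, 35.7, 49.5 and 53.4 CPM at P10. Rp1l1, a microtubule-associated protein of the axoneme, rose by 1.62 ± 0.26 (adjusted p = 0.00298).

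Genes that handle the retinoid released by bleached pigment rose in part. Of 10 tested, 5 were higher and none was lower, and the count was also 5 without the pair. Abca4, the flippase that clears retinal from the discs, was at 262, 334, 225 and 421 CPM at P6, 1163 and 733 CPM at P8 and 947, 1262, 1419.5 and 2046 CPM at P10, a log2 fold change of 2.29 ± 0.30 (edgeR adjusted p = 0.00138). The retinol dehydrogenase genes Rdh8 and Rdh12 rose by 2.97 ± 0.31 (adjusted p = 0.000656) and 2.44 ± 0.32 (adjusted p = 0.00138), and Dhrs3, a retinal reductase, by 2.10 ± 0.26 (adjusted p = 0.00111). Rbp3, the retinoid-binding protein of the matrix, was at 3359, 3893, 3189 and 3895 CPM at P6 and 4156, 3514, 3958 and 4140.0 CPM at P10, with groups that overlapped and a log2 value of 0.22.

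Cilium and ciliary transport genes showed smaller and less stable rises. Of 39 tested, 16 were higher and 1, Poc1b, was lower, with a median log2 fold change of 0.56; without the pair 14 were higher. The count fell to 6 without P6 replicate 3, to 10 without P6 replicate 4 and to 9 without P10 replicate 4. Fam161a, a microtubule-binding protein of the connecting cilium, was at 98.5, 164, 94.3 and 151 CPM at P6, 432 and 246 CPM at P8 and 346, 460.3, 503 and 723 CPM at P10. Its log2 fold change was 2.10 ± 0.28 (edgeR adjusted p = 0.00149), and no P10 library overlapped a P6 library. Ttc8, a subunit of the BBSome that carries membrane proteins in cilia, rose by 1.18 ± 0.21 (adjusted p = 0.00494), and the kinesin-2 motor gene Kif3b by 0.96 ± 0.17 (adjusted p = 0.00484). The ciliary GTPase gene Arl13b rose by 1.47 ± 0.28 (adjusted p = 0.00705). Poc1b, a centriole protein, fell by 0.74 ± 0.14 (adjusted p = 0.00673) on the log2 scale.

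The regulators that define the rod gave no detectable change, while other photoreceptor transcription factors moved. Nrl (log2 0.19), Crx (0.14) and Nr2e3 (-0.24) did not pass the test, with adjusted p of 0.585, 0.655 and 0.464 in edgeR's test, and their libraries overlapped. Crx was at 1918, 2952, 2113 and 2297 CPM at P6, 2839.6 and 2562 CPM at P8 and 2375, 2256, 2306 and 2732 CPM at P10. Cells of both ages were sorted by GFP from the Nrl promoter, and the part of the sort in the Nrl level was not tested. Of 18 photoreceptor transcription factors tested, 4 were higher and 3 lower. Esrrb, an orphan nuclear receptor, was at 17.0, 10.8, 16.7 and 27.1 CPM at P6, 204 and 67.0 CPM at P8 and 187, 217, 256 and 419 CPM at P10. It rose 16.2-fold (log2 4.01 ± 0.36, adjusted p = 0.000398), the largest rise among the 18, and every P10 library stood above every P6 library. Mef2c, a MADS-box factor, rose by 1.97 ± 0.27 (adjusted p = 0.00157), the thyroid hormone receptor gene Thrb by 1.298 ± 0.14 (adjusted p = 0.000656) and the nuclear receptor gene Rora by 1.13 ± 0.17 (adjusted p = 0.00235).

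The 3 factors that fell are known from earlier fate choices. Prdm1, which holds back bipolar fate in newborn photoreceptors, was at 332, 559, 474 and 514 CPM at P6, 356 and 423 CPM at P8 and 228, 193, 151 and 157 CPM at P10, a log2 fold change of -1.28 ± 0.17 (edgeR adjusted p = 0.00141). Otx2, needed for photoreceptor and bipolar fate, went from 1159, 1629, 1260.3 and 1124 CPM at P6 to 809, 569.8, 501 and 522 CPM at P10 (log2 -1.04 ± 0.20, adjusted p = 0.00673). Rxrg, a nuclear receptor of young photoreceptors and cones, fell by 2.42 ± 0.38 (adjusted p = 0.00261). In none of these genes did the groups overlap. Without the pair of libraries the list had 4 higher and 4 lower members.

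Genes of the ribbon synapse rose in part: 25 of the 29 tested had log2 values above 0, and none was called lower. Of 29 ribbon synapse genes tested, 16 were higher and none lower, with a median log2 fold change of 0.51, and 15 were higher without the pair. Cabp4, the calcium-binding protein that tunes the calcium channel of the terminal, was at 8.38, 5.57, 4.19 and 8.87 CPM at P6, 72.8 and 27.0 CPM at P8 and 54.8, 67.5, 99.0 and 128 CPM at P10. It rose 13.7-fold (log2 3.77 ± 0.37, edgeR adjusted p = 0.000574). Cplx4, a complexin of ribbon synapses, rose by 2.74 ± 0.29 (adjusted p = 0.000676), the scaffold gene Mpp4 by 2.48 ± 0.28 (adjusted p = 0.000885) and the active zone gene Rims2 by 1.68 ± 0.17 (adjusted p = 0.000611). Slc17a7, the vesicular glutamate transporter of rods, was at 305, 306, 145 and 323 CPM at P6, 988 and 664 CPM at P8 and 958, 1035, 1310.5 and 1357 CPM at P10 (log2 2.18 ± 0.29, adjusted p = 0.00144). For both Cabp4 and Slc17a7 the P10 libraries lay above all P6 libraries, and P6 replicate 3 was the lowest.

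Among 13 genes of ion transport in the inner segment, 5 were higher and 1 was lower, with and without the pair, and the median log2 fold change was 0.36. The lower count was 0 without P6 replicate 2, 3 or 4 or P10 replicate 3, 4 or 5. Kcnv2, a modulatory subunit of voltage-gated potassium channels, was at 265, 269, 187 and 346 CPM at P6, 990.3 and 595 CPM at P8 and 678, 857, 926 and 1005 CPM at P10, a log2 fold change of 1.78 ± 0.23 (edgeR adjusted p = 0.00127), and every P10 library lay above every P6 library. Slc12a5, a potassium-chloride cotransporter, rose by 2.06 ± 0.26 (adjusted p = 0.00112).

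In energy metabolism, glycolysis and lactate genes rose in part. Of 28 tested, 6 were higher and 2 lower, beside 10.3% higher and 10% lower of all genes tested. The share called was 28.6%, beside 20.4% of all genes tested. Without the pair of libraries 12 were higher, and without P10 replicate 5 alone 10 were. The median log2 fold change was 0.35 (0.44 without the pair), and 19 of the 28 had values above 0. DESeq2 called 8 higher and limma-voom 15. Slc16a1, a transporter of lactate and pyruvate, was at 10.6, 7.20, 15.5 and 18.3 CPM at P6, 48.6 and 21.01 CPM at P8 and 81.0, 96.0, 90.01 and 82.1 CPM at P10. Its log2 fold change of 2.85 ± 0.24 (edgeR adjusted p = 0.000353) was the largest of the list, with no overlap of the groups. The hexokinase gene Hk1 went from 251, 149, 140.4 and 198 CPM at P6 to 545, 553, 642 and 701 CPM at P10 (log2 1.79 ± 0.24, adjusted p = 0.00143). Pfkfb2, whose product sets the level of a potent activator of phosphofructokinase, rose by 2.24 ± 0.34 (adjusted p = 0.00245), and the neuronal enolase gene Eno2 by 1.22 ± 0.17 (adjusted p = 0.00160). Pdk2, a kinase that inhibits pyruvate dehydrogenase, fell by 0.68 ± 0.10 (adjusted p = 0.00214). Lactate dehydrogenase A (Ldha) had a log2 value of -0.16 and did not pass the test.

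Nuclear genes of the respiratory chain did not move as a group. Of 70 tested, 2 were higher (3 without the pair) and none was lower, a smaller share than the 20.4% of all genes called, with a median of -0.03. No single call is described, because both were lost when single libraries were left out. Among 25 genes of pyruvate entry and the citric acid cycle, 4 were higher and 1 lower (20% called), with and without the pair. The higher count was 1 or 2 when any library except P6 replicate 1 was left out. Mitochondrial isocitrate dehydrogenase (Idh2) fell from 55.6, 61.4, 63.5 and 51.5 CPM at P6 to 29.5, 26.4, 25.2 and 15.6 CPM at P10, a log2 fold change of -1.19 ± 0.17 (edgeR adjusted p = 0.00184). Got1, the cytosolic aspartate aminotransferase, rose by 1.11 ± 0.17 (adjusted p = 0.00218). Of 28 genes of mitochondrial upkeep, 5 were higher and 1 lower, a share of 21.4% beside 20.4% of all genes tested. Both counts were 3 without the pair, and the higher count was 2 or 3 when any library except P10 replicate 2 was left out. Ppargc1b, a coactivator of mitochondrial genes, was at 42.8, 48.1, 40.1 and 54.3 CPM at P6 and 113, 154, 206 and 246 CPM at P10 (log2 2.05 ± 0.25, adjusted p = 0.00112). The mitochondrial creatine kinase Ckmt1 rose by 1.73 ± 0.27 (adjusted p = 0.00245), while its cytosolic relative Ckb had a log2 value of -1.17 ± 0.31 (adjusted p = 0.0257), a call lost without P10 replicate 3 (adjusted p = 0.0786).

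Lipid genes were split in direction, as were all genes tested (10.3% higher and 10% lower). Of 20 fatty acid and phospholipid genes tested, 5 were higher and 3 lower, and 3 of each without the pair. The share called was 40%, beside 20.4% of all genes tested. The higher count was 2 without P6 replicate 3, P10 replicate 3 or P10 replicate 4 and 3 without P6 replicate 2 or P10 replicate 5. Cpt1a, which brings long-chain fatty acids into mitochondria for oxidation, rose from 159.7, 229, 115 and 209.6 CPM at P6 to 411, 479, 449 and 621 CPM at P10 (log2 1.54 ± 0.25, edgeR adjusted p = 0.00305), and the fatty acid-sensing receptor gene Ppara rose by 1.60 ± 0.34 (adjusted p = 0.0105). Fasn, fatty acid synthase, fell by 0.97 ± 0.18 (adjusted p = 0.00636) and the elongase gene Elovl2 by 0.75 ± 0.15 (adjusted p = 0.00740). Of 21 cholesterol genes, 4 were higher and 4 lower (3 and 4 without the pair), a share of 38.1% called. The higher count was 2 without P6 replicate 2, 3 or 4 or P10 replicate 3 or 4, and the lower count was 2 without P6 replicate 4 and 1 without P10 replicate 4. Srebf2, the master regulator of cholesterol synthesis, fell by 1.17 ± 0.19 (adjusted p = 0.00326), whereas Dhcr7, the last enzyme of one branch of the pathway, rose by 0.86 ± 0.18 (adjusted p = 0.00895).

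Cell cycle and progenitor genes fell. Of 36 proliferation genes tested, 28 were lower at P10 and none was higher, beside 10% and 10.3% of all genes tested, with a median log2 fold change of -1.94; the counts were the same without the pair. Mki67, a marker of dividing cells, was at 95.6, 59.6, 183 and 45.5 CPM at P6, 2.35 and 5.31 CPM at P8 and 5.54, 4.94, 4.81 and 0.538 CPM at P10. Its log2 fold change was -4.53 ± 0.61 (edgeR adjusted p = 0.00147), and P6 replicate 3 was the highest. The topoisomerase gene Top2a fell by 3.37 ± 0.37 (adjusted p = 0.000732), and cyclin D1 (Ccnd1), the retina's main D-type cyclin, by 3.89 ± 0.57 (adjusted p = 0.00209). Summed over the list, the level was 1374, 995, 2059.6 and 965 CPM at P6, 419.7 and 519 CPM at P8 and 441, 409.8, 407 and 357 CPM at P10.

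Of 24 progenitor and Notch genes tested, 18 were lower and none was higher, with a median of -2.37. Without the pair the counts were the same and the median was -1.47, and 12 were lower without P10 replicate 4. Notch1, the receptor, was at 219, 190.1, 270.4 and 165 CPM at P6, 26.7 and 74.8 CPM at P8 and 36.9, 17.0, 35.5 and 7.33 CPM at P10 (log2 -3.06 ± 0.43, edgeR adjusted p = 0.00165). The Notch ligand gene Dll3 fell by 3.66 ± 0.39 (adjusted p = 0.000682), and Hes6, a bHLH factor of differentiating neurons, by 2.37 ± 0.28 (adjusted p = 0.000947). Olig2, a bHLH factor of late retinal progenitors, was at 6.44, 2.50, 6.84 and 1.98 CPM at P6, 0.248 and 0.599 CPM at P8 and 0.169, 0, 0.0720 and 0 CPM at P10, where 2 libraries had no count. The summed level of the list was 1767, 975, 1783 and 1109 CPM at P6 and 963, 616, 571 and 138 CPM at P10, lowest in P10 replicate 5. The Müller glia markers, which share Sox9 with this list, summed to 1534, 687, 1394 and 888 CPM at P6 and 1154, 840.3, 768 and 313 CPM at P10. Both sums were high in P6 replicates 1 and 3 and low in P10 replicate 5, and the part of other cells in the falls was not tested.

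Genes of the young neuron and of chromatin fell in part. Of 30 genes of young neurons and axon growth tested, 10 were lower and 1 higher, with a median log2 fold change of -0.78; 12 were lower without the pair, 6 without P6 replicate 3 and 5 without P10 replicate 4. Stmn1, a microtubule-destabilizing protein, was at 622, 505, 744 and 498 CPM at P6, 118 and 307 CPM at P8 and 214, 125, 95.9 and 35.8 CPM at P10 (log2 -2.28 ± 0.42, edgeR adjusted p = 0.00559). Sox11, a factor of newborn neurons, fell by 3.23 ± 0.48 (adjusted p = 0.00215) and the neuronal tubulin gene Tubb3 by 1.27 ± 0.24 (adjusted p = 0.00570). The exception was the cell adhesion gene Nfasc, which rose from 128, 180.3, 128 and 156 CPM at P6 to 538, 662, 839.8 and 661 CPM at P10 (log2 2.27 ± 0.19, adjusted p = 0.000353). Of 31 genes of nuclear architecture and chromatin, 15 were lower and 2 higher, with 13 and 2 without the pair and 7 lower without P10 replicate 4. The linker histone gene H1f0 fell by 1.77 ± 0.21 (adjusted p = 0.000963) and Uhrf1, which maintains DNA methylation at replication, by 3.80 ± 0.62 (adjusted p = 0.00327).

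**Figure D3:**
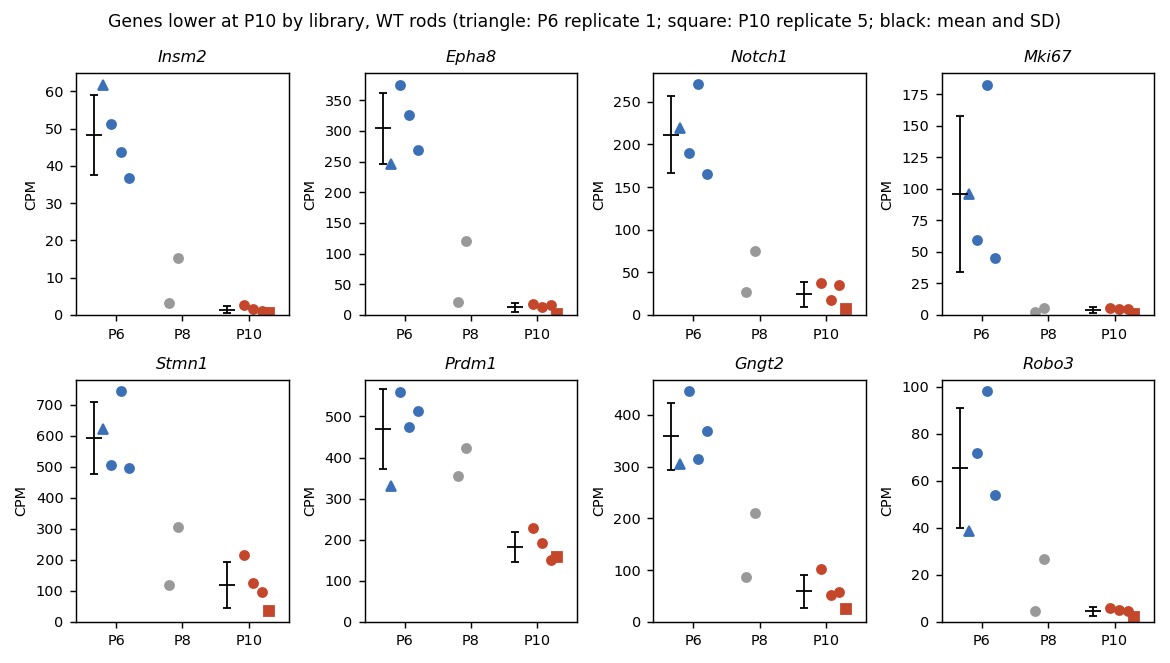
CPM (y axis) of Insm2, Epha8, Notch1, Mki67, Stmn1, Prdm1, Gngt2 and Robo3 in the P6 (blue), P8 (grey) and P10 (red) WT libraries; black marks are group means with SD for 4 libraries, the triangle is P6 replicate 1 and the square P10 replicate 5. In each gene all P10 libraries lie below all P6 libraries, and in each gene except Prdm1 P10 replicate 5 is the lowest library. Insm2, Epha8 and Mki67 were picked only among genes whose groups do not overlap.

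Some genes of the cell death machinery fell, and few stress pathway genes passed the test. Of 18 apoptosis genes tested, 5 were lower (27.8%, beside 10% of all genes tested) and none was higher. Without the pair 1 was higher. Apaf1, the apoptosome scaffold, was at 37.4, 57.3, 44.5 and 36.7 CPM at P6, 20.8 and 25.6 CPM at P8 and 26.2, 24.2, 18.5 and 13.7 CPM at P10 (log2 -1.02 ± 0.21, edgeR adjusted p = 0.00903). Lower levels were also called for both an inhibitor and an inducer of death, with Bcl2l1 lower by 0.77 ± 0.14 (adjusted p = 0.00585) and Bcl2l11 by 0.80 ± 0.15 (adjusted p = 0.00545). Of 25 genes of the unfolded protein and integrated stress responses, 1 was higher and none lower (no member in either direction without the pair), with a median of 0.00. Of 26 antioxidant genes, 2 were higher and 5 lower (4 and 5 without the pair), with 9 lower without P10 replicate 2. The share called was 26.9%, beside 20.4% of all genes tested. Nxnl1, the gene of a rod-derived cone viability factor, rose from 121, 122, 40.8 and 108 CPM at P6 to 249, 322, 404 and 525 CPM at P10 (log2 2.01 ± 0.38, adjusted p = 0.00656), and the glutamate-cysteine ligase subunit gene Gclm fell by 0.83 ± 0.16 (adjusted p = 0.00611).

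Immediate early genes, which respond within minutes to tissue dissociation, separated single libraries. Of 21 tested, 1 was higher and 1 lower, a share of 9.52% called beside 20.4% of all genes tested. The summed level of the list was 1934, 855, 745 and 747 CPM at P6, 698 and 844 CPM at P8 and 519.6, 599.7, 614 and 2041 CPM at P10. The highest sums were those of P6 replicate 1 and P10 replicate 5. Without these libraries 4 members were higher and 4 lower, and the median log2 fold change was 0.03 in place of -0.64 (0.26 without P6 replicate 1 alone). Btg2, an antiproliferative gene, was the lower member (log2 -0.94 ± 0.15, edgeR adjusted p = 0.00336).

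**Figure D4:**
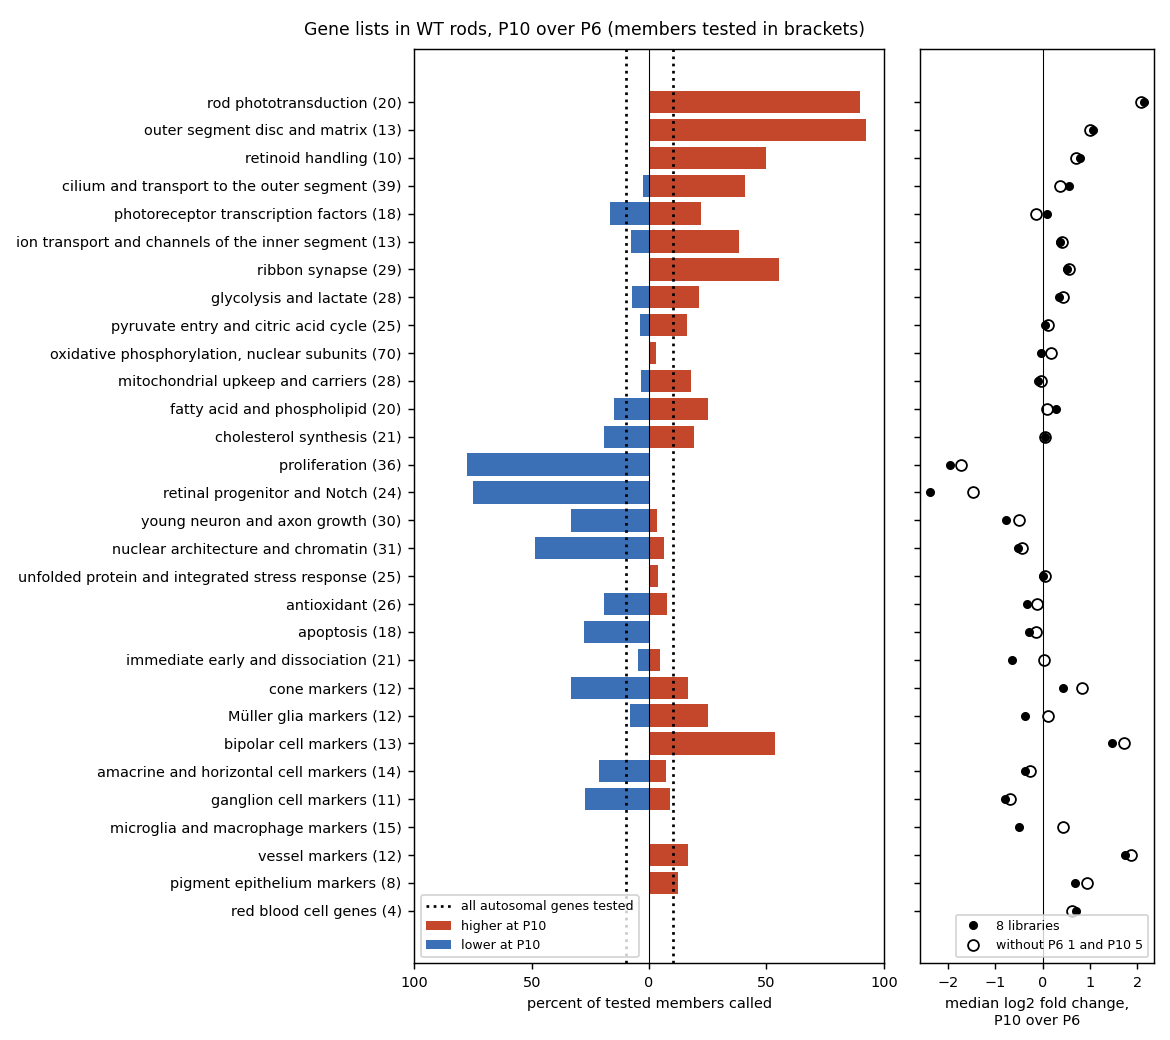
Left, the share of tested members of each gene list (number tested in brackets) called higher (red, to the right) or lower (blue, to the left) at P10, in percent, with dotted lines at the 10.3% and 10% of all autosomal genes tested. Right, the median log2 fold change of each list in the 8 libraries (filled) and without P6 replicate 1 and P10 replicate 5 (open); phototransduction has the highest 8-library median at 2.13 and the progenitor list the lowest at -2.37.

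Cone genes went in both directions. Of 12 autosomal cone markers tested, 2 were higher and 4 lower; without the pair, or without P10 replicate 5 alone, 6 were higher and 4 lower. Gngt2, the gamma subunit of cone transducin, was at 304, 446, 314 and 369.9 CPM at P6, 87.3 and 211 CPM at P8 and 101, 50.8, 57.6 and 24.7 CPM at P10 (log2 -2.56 ± 0.34, edgeR adjusted p = 0.00144). Cngb3, a cone channel subunit, had a log2 fold change of -0.86 ± 0.20 (adjusted p = 0.0158). Opn1sw, the short-wavelength cone opsin, was at 132, 90.2, 80.0 and 108 CPM at P6 and at 163, 155, 200.3 and 43.5 CPM at P10. It was highest in P10 replicates 2 to 4 and lowest in P10 replicate 5, and it did not pass the test in the 8 libraries (log2 0.50). Without P6 replicate 1 and P10 replicate 5 it was called higher (log2 0.99, edgeR adjusted p = 0.00324). Kcne2, a potassium channel subunit, was likewise higher in P10 replicates 2 to 4 than in P10 replicate 5, at 7.78, 4.09, 3.61 and 8.22 CPM at P6 and 23.0, 25.3, 33.3 and 9.07 CPM at P10 (log2 1.98 ± 0.42, adjusted p = 0.0102). Thrb, given above, was 1 of the 2 higher members. The cone list as a whole summed to 1417, 2019, 1756 and 1876 CPM at P6 and 1421, 1139, 1387 and 772 CPM at P10. The falls of Ccdc136 (mean 513 to 53.5 CPM) and Gngt2 (mean 359 to 58.6 CPM) weighed heavily in these sums. Of the 12 markers, 8 had log2 values above 0, with a median of 0.43 (0.84 without the pair).

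Markers of other retinal cells were measured in the same libraries. Of 13 bipolar cell markers tested, 7 were higher and none was lower, with a median log2 fold change of 1.47; 10 were higher without the pair and 11 without P10 replicate 5 alone. Their summed level was 830.3, 541, 767 and 958 CPM at P6, 604 and 1172 CPM at P8 and 2237, 1699, 1458 and 427 CPM at P10. The bipolar channel gene Trpm1 was at 9.26, 11.1, 11.7 and 42.3 CPM at P6 and 248, 236, 196 and 32.2 CPM at P10 (log2 3.323 ± 0.66, edgeR adjusted p = 0.00797), high in P10 replicates 2 to 4 and within the P6 range in P10 replicate 5. Gng13, a G protein subunit of ON bipolar cells, rose by 4.04 ± 0.46 (adjusted p = 0.000858). The rod gene Gnat1 was highest in P10 replicate 5, the library with the lowest bipolar sum.

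Of 12 vessel markers, 2 were higher; without the pair, or without P10 replicate 5 alone, 10 were, and the sum was 342, 165, 429 and 226 CPM at P6 and 506, 336, 416 and 60.9 CPM at P10. Of 12 Müller glia markers, 3 were higher and 1 lower (4 and 1 without the pair), and 4 of the 12 had values above 0, with a median log2 fold change of -0.38 (0.11 without the pair). The lower member was Sox9, a factor of progenitors and glia, at 57.8, 9.09, 18.7 and 9.61 CPM at P6 and 4.73, 5.38, 3.28 and 1.48 CPM at P10. Its log2 fold change was -2.68 ± 0.67 (edgeR adjusted p = 0.0212) with P6 replicate 1 far the highest, -1.39 without the pair, and the call was lost without P10 replicate 4 (adjusted p = 0.0690). Among the higher members, the glial transporter gene Abca8a rose by 3.02 ± 0.34 (adjusted p = 0.000858), and the water channel gene Aqp4 by 2.90 ± 0.46 (adjusted p = 0.00289). Amacrine and horizontal cell markers had 1 higher and 3 lower of 14 tested (2 and 4 without the pair), with between 0 and 2 higher and between 0 and 4 lower when 1 library was left out, and summed to 445, 603, 950.4 and 735 CPM at P6 and 720.0, 605, 571 and 223 CPM at P10. Ganglion cell markers had 1 higher and 3 lower of 11, with and without the pair; the homeobox gene Isl2 fell by 1.59 ± 0.33 (adjusted p = 0.00923). Pigment epithelium markers had 1 higher of 8, with 3 of 9 tested higher without P10 replicate 5 and 4 of 9 without the pair. The higher member was Ttr, a carrier of thyroid hormone and retinol-binding protein, with a log2 fold change of 2.14 ± 0.53 (adjusted p = 0.0207), a call lost without P6 replicate 1 (adjusted p = 0.0556). None of 15 microglia and macrophage markers and none of 4 red blood cell genes passed edgeR's test in either direction, at an unadjusted p under 0.05 as well, and DESeq2 and limma-voom also called 0 of each. The share called was 16.7% for vessel, 33.3% for Müller glia, 28.6% for amacrine and horizontal, 36.4% for ganglion and 12.5% for pigment epithelium markers. Beside these shares, 20.4% of all genes tested were called, 10.3% higher and 10% lower. The part of these other cells in any result was not tested.

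**Figure D5:**
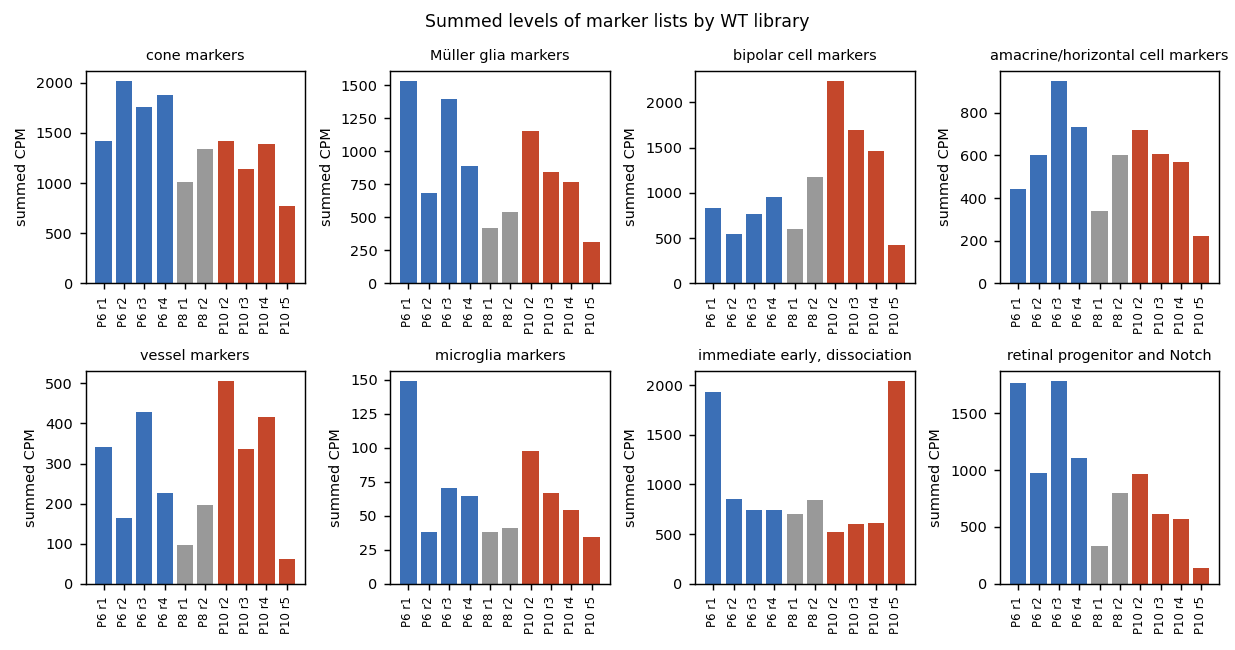
Summed CPM (y axis) of 8 marker lists in each of the 10 WT libraries (x axis; P6 blue, P8 grey, P10 red; r is the replicate). The bipolar sum is higher in P10 replicates 2 to 4 (1458 to 2237) than in every P6 library, P10 replicate 5 (427) is below all of them, and the immediate early sum is high in P6 replicate 1 and P10 replicate 5.

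The steepest single changes included genes outside the lists. Drd4, the dopamine D4 receptor, rose from 1.48, 0.266, 0.780 and 0.408 CPM at P6 through 23.3 and 2.19 CPM at P8 to 10.3, 30.4, 98.4 and 78.1 CPM at P10, a log2 fold change of 6.30 ± 0.84 (edgeR adjusted p = 0.00140). Kcnj14, an inward rectifier potassium channel, rose by 4.73 ± 0.67 (adjusted p = 0.00170), Pdzph1 by 4.94 ± 0.56 (adjusted p = 0.000806), and the nuclear envelope gene Syne3 by 4.43 ± 0.71 (adjusted p = 0.00309). All 4 were highest in P10 replicate 4 or 5. Cdh9, a cadherin, and Lrtm1 had a different shape. Lrtm1 was at 2.43, 2.77, 1.11 and 5.91 CPM at P6, 8.70 and 10.4 CPM at P8 and 75.0, 80.2, 78.7 and 15.6 CPM at P10 (log2 4.39 ± 0.59, adjusted p = 0.00146), and Cdh9 at 0.243, 0.157, 0.461 and 0.433 CPM at P6 and 11.3, 9.51, 9.63 and 2.20 CPM at P10 (log2 4.65 ± 0.56, adjusted p = 0.00104). In both, P10 replicate 5 was far below the other P10 libraries, as in the bipolar sum, and the part of bipolar cells was not tested.

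Among the steepest falls were regulators and surface proteins. Insm2, a zinc finger gene, was at 61.8, 51.2, 43.6 and 36.6 CPM at P6, 3.28 and 15.2 CPM at P8 and 2.75, 1.58, 1.101 and 0.410 CPM at P10 (log2 -5.01 ± 0.44, edgeR adjusted p = 0.000380). Epha8, an ephrin receptor, went from 246, 375, 326 and 269 CPM at P6 through 21.4 and 121 CPM at P8 to 17.7, 13.2, 16.9 and 1.00 CPM at P10 (log2 -4.58 ± 0.61, adjusted p = 0.00138). St14, a membrane-bound serine protease, fell by 4.50 ± 0.31 (adjusted p = 0.000191), the extracellular matrix gene Mfap4 by 4.80 ± 0.41 (adjusted p = 0.000353) and C2cd4b by 5.29 ± 0.75 (adjusted p = 0.00181). The growth factor gene Fgf15 and the mitotic genes Pbk and Kif18b completed the 10 largest falls among genes that are neither predicted genes nor pseudogenes, with log2 values of -4.47, -4.96 and -4.38. P8 replicate 1 had the lower value of the P8 pair in Insm2 and Epha8, just as it had the higher value in Gnat1.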

How the data were processed

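Reads from TruSeq stranded mRNA libraries were quantified with kallisto 0.42.4 on GRCm38.p5, per the submitters' processing notes, which also name edgeR 3.32.1. The deposited gene table holds estimated counts, which need not be whole and were rounded here for the tests. The deposited CPM table holds counts per 1000000 (CPM), which equalled values computed here from the counts of the same table to within 5.8e-11. A column with no matching label (1 per table) was not used. Totals of 11942678 to 14995501 counts per library limit the precision of genes at a few CPM.

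The P6 and P10 WT libraries were fitted without covariates in edgeR 4.0.16 (R 4.3.3; filterByExpr, TMM, glmQLFit and glmQLFTest, 6 residual degrees of freedom), with Benjamini-Hochberg adjustment over all 16236 genes tested. A called gene has an adjusted p under 0.05, and log2 fold changes carry their SE. Levels are CPM with library totals. Group comparisons of library values say whether the 4 values of one age all lie above those of the other. Named genes were 13 fixed rod genes, the 10 largest rises and falls (genes called, groups not overlapping, log2 CPM averaging 1 or more; predicted genes and pseudogenes, 3 of the rises and 1 of the falls, were passed over), and up to 4 called members of each of 30 lists by p; genes chosen after their values were seen are Gngt1, Gucy2e, Grk1, Rcvrn, Arl13b, Otx2, Slc17a7, Pfkfb2, Ldha, Ccnd1, Opn1sw, Kcne2, Trpm1, Rbp3, Cngb3, Gnb1, Poc1b, Rora and those of the other observations. The members and lists were chosen with earlier results of these data known. In 12 comparisons of libraries within an age, chi-square per degree of freedom was 10.5 to 120, so no library was counted once for another. Alternatives used DESeq2 1.42.0, limma 3.58.1, other filters and scalings, a replicate block, all WT libraries, and each library left out. On simulated counts for 16236 genes with 200 changed, edgeR's test at this size recovered 35% of 2-fold and 77% of 4-fold changes. Results for some genes are not reported here.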

Additional observations from a re-analysis of the deposited data

Results flagged for a closer look

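In 402 groups of 4 values (libraries of one age), 28 had a library far from the other 3 by Dixon's criterion; chance alone flags about 1 in 20 such groups. P6 replicate 1 stood apart in 7 of them: genes detected (25749), the share of the 10 most abundant genes (11.5% of counts), Rn18s-rs5 (38605 CPM), Fos (270 CPM), the macrophage marker Cd68 (10.3 CPM), and the summed levels of the mitochondrial upkeep list (5240.4 CPM) and of the immediate early list (1934 CPM). P10 replicate 5 stood apart in 10. It had 20933 detected genes, Fos at 515 CPM, an immediate early sum of 2041 CPM, Pde6b at 4138 CPM, Lrtm1 at 15.6 CPM, Mki67 at 0.538 CPM, the cone marker Ccdc136 at 14.2 CPM, the cone channel gene Cngb3 at 14.8 CPM, the ganglion cell gene Pou4f1 at 0.700 CPM and a ganglion cell sum of 59.0 CPM.

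P6 replicate 3 was far below the other P6 libraries in Rom1 (889 CPM), Ppargc1a (16.6 CPM) and Slc17a7 (145 CPM), and far above them in the amacrine cell gene Th (1.21 CPM) and in Miat (1556 CPM). P6 replicate 4 stood apart in the other-cell genes Aqp4 (2.04 CPM), Scgn (16.7 CPM), Trpm1 (42.3 CPM), Grm6 (66.4 CPM) and Hba-a1 (3.04 CPM). P10 replicate 2 stood apart in Hba-a1 alone (4.66 CPM). The calls named in the report for Pde6b, Lrtm1, Mki67, Slc17a7, Aqp4 and Trpm1 did not depend on any of these libraries, whereas that of Rom1 was lost without P6 replicate 3 among others.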

How the results depend on the processing

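The count of called genes stayed within 1.5 times 3174 with DESeq2's size factors in edgeR (3170), library totals (3140), no low-count filter (2763), a mean of at least 1 CPM (3170), robust dispersion (3179), all 15 WT libraries (3954) and DESeq2 (4153). With limma-voom and library weights it was 4948, of which 2515 were higher and 2433 lower; the cause was not tested. Leaving out each library in turn gave 1752 to 3348 calls, 971 to 1669 higher, 781 to 1679 lower, and 1229 to 1962 of at least 2-fold; those fits have fewer samples. Same-numbered libraries did not all deviate together (correlations of -0.316, 0.297 and -0.0149 for numbers 2, 3 and 4). The labels do not say what the number marks, and a shared day or litter was not tested. A fit with the replicate block, with 2 residual degrees of freedom, called 2433 genes.

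Of 154 named genes called, 134 kept direction and call in every alternative and 135 when any 1 library was left out. Of the 5 sign changes, all in genes that were not called, Crx was at -0.001 without P6 replicate 1 and P10 replicate 5, P2ry12 at 0.147 without P6 replicate 1, at 0.471 without the pair and at 0.462 with the block, and Hba-a1 at -0.119 without P10 replicate 2. Leaving out 1 library at a time, P2ry12 ranged from -2.146 to 0.147 and Hba-a1 from -0.119 to 1.861. In the simulated counts 35% of 2-fold changes were recovered, but far fewer genes were changed there than were called in the data. The simulation therefore cannot give the share of 2-fold changes missed here. A gene that missed the threshold is not shown to be stable.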

Other observations

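The genes described here were chosen after their values were seen. Aipl1, a chaperone that rod phosphodiesterase needs in order to fold, rose alongside the enzyme's subunits, from 189, 172, 116 and 170.1 CPM at P6 through 706 and 398 CPM at P8 to 560.0, 718, 1016 and 1138 CPM at P10 (log2 2.48 ± 0.29, edgeR adjusted p = 0.000969). Slc6a6, the taurine transporter, went from 122, 140.0, 214 and 233 CPM at P6 to 686, 861, 1012 and 1240.3 CPM at P10 (log2 2.53 ± 0.26, adjusted p = 0.000656). For both genes every P10 library lay above every P6 library. Rises were also called in the secreted adhesion protein gene Vtn (3.41 ± 0.33, adjusted p = 0.000527), the alkaline phosphatase gene Alpl (3.79 ± 0.40, adjusted p = 0.000660) and the peptide hormone receptor gene Glp2r (3.14 ± 0.41, adjusted p = 0.00129). The adjacent genes Tnfsf12 and Tnfsf13 gave 3.14 ± 0.38 (adjusted p = 0.00104) and 3.319 ± 0.44 (adjusted p = 0.00141), values that are uncertain because read-through transcripts join them.

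Further falls were seen in genes outside the lists. Robo3, an axon guidance receptor, was at 38.7, 71.9, 98.1 and 53.8 CPM at P6, 4.60 and 26.7 CPM at P8 and 5.95, 5.22, 4.39 and 1.97 CPM at P10 (log2 -3.82 ± 0.34, edgeR adjusted p = 0.000398). Miat, a long noncoding RNA, went from 502, 682, 1556 and 592 CPM at P6 to 128, 81.0, 57.0 and 4.06 CPM at P10 (log2 -3.56 ± 0.78, adjusted p = 0.0119), with P6 replicate 3 highest and P10 replicate 5 lowest. The transcription factor genes Myb and Zic1 had log2 values of -3.07 ± 0.55 (adjusted p = 0.00494) and -2.96 ± 0.61 (adjusted p = 0.00909). Complexins moved in opposite directions: Cplx4 rose, as given above, while Cplx2, a complexin of conventional synapses, fell from 941, 1165, 1242 and 1232 CPM at P6 to 532, 397, 334 and 231 CPM at P10 (log2 -1.55 ± 0.22, adjusted p = 0.00165). Among 709 lincRNAs tested, 75 were higher and 28 lower at P10, and among 204 processed pseudogenes 13 were higher and 11 lower, beside 10.3% higher and 10% lower of all autosomal genes tested.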
